A study of Homo sapiens with 2 samples.

Results

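The snoRNA host genes GAS5, SNHG1, SNHG3, SNHG5, SNHG6, SNHG7, SNHG8, SNHG12 and ZFAS1 were compared between 1 library of live cells and 1 library of processed cells. Members were taken as the genes whose symbol in the deposited tables equals a listed name, which gave 7 of the 9 names among 55797 genes. ZFAS1 is listed there under its older symbol ZNFX1-AS1, was found by its Ensembl identifier and is described beside the 7. SNHG8 matched neither by symbol nor by identifier and was not analysed here. Both libraries came from the human embryonic stem cell line H1, grown on matrigel and differentiated to Stage 6, the last stage of a stepwise pancreatic protocol, at which part of the culture expresses insulin. Live cells were not fixed, and their RNA was isolated with the RNeasy kit. Processed cells went through MARIS, in which cells are fixed in paraformaldehyde, permeabilized, stained with antibodies and sorted, here with all cells kept, and their RNA was isolated with a modified RecoverAll kit. The cultures are mixtures of cell types. Each condition has 1 sample, so no difference below has a replicate check in these data, and no test between conditions was possible. From microarrays of replicate pairs, the paper reported no gene that differed consistently between live and processed cells. From RNA-seq it described gene levels in live and processed cells as very similar. It also reported a small increase, after processing, in coverage bias toward the downstream end of transcripts.

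snoRNA host genes carry small nucleolar RNAs in their introns. After splicing, the intron is trimmed to the snoRNA, which in most cases guides the modification of ribosomal RNA. Most box C/D snoRNAs direct ribose methylation, and most box H/ACA snoRNAs direct the conversion of uridine to pseudouridine. In these genes the spliced exons encode no known functional protein, and many of the spliced RNAs begin with a pyrimidine tract like that of ribosomal protein mRNAs and are broken down by nonsense-mediated decay when ribosomes engage them. RNA with a poly-A tail was sequenced, so that these libraries measure mainly the host RNA and not the mature snoRNA.

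The 8 host genes held 32 rows for snoRNAs, 25 named SNORD (box C/D) and 7 named SNORA (box H/ACA), and each of the 32 lay in an intron of its host's canonical transcript in GENCODE release 44. GAS5 (growth arrest specific) held 8 of these rows and SNHG1, the U22 host gene, held 9. Of 33 snoRNA names listed for these hosts, 30 were found within their host, so the rows are not the full set. SNORD87 and SNORD22 each stand more than once among the rows. The snoRNAs of GAS5 and SNHG12 are shown because these hosts differed most between live and processed cells in each direction. Sequences are those of GRCh37 at the positions in the deposited tables, read on the strand of the host. In the 8 snoRNA rows of GAS5, capitals mark the C box TGATGA within 20 nt of the start and the D box CTGA within 15 nt of the end.
SNORD74: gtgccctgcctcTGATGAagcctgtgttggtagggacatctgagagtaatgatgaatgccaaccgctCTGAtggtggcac
SNORD76: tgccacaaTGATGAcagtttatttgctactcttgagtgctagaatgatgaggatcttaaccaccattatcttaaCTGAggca
SNORD77: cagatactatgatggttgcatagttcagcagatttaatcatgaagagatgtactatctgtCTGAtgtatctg
SNORD78: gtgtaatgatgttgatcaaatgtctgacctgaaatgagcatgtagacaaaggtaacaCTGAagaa
SNORD79: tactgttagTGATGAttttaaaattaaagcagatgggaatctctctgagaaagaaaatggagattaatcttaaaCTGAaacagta
SNORD80: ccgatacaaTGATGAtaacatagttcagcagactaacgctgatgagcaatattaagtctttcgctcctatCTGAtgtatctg
SNORD47: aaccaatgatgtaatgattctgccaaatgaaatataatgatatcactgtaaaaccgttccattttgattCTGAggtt
SNORD81: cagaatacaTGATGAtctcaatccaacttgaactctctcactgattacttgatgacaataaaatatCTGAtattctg
On the minus strand of GRCh37, SNORD74 at chr1:173836809-173836888, SNORD76 at chr1:173835772-173835853, SNORD77 at chr1:173835438-173835509, SNORD78 at chr1:173834760-173834824, SNORD79 at chr1:173834486-173834570, SNORD80 at chr1:173833965-173834046, SNORD47 at chr1:173833507-173833583 and SNORD81 at chr1:173833284-173833360 are intronic in GAS5. Of these 8, 5 had both boxes, and SNORD77, SNORD78 and SNORD47 had the D box without the exact C box. These letters were searched on the host strand only. Both boxes stood in 17 of the 25 SNORD rows within the host genes (68%). Elsewhere they stood in 50.1% of the 375 SNORD rows that had a strand in GENCODE release 44. These are counts of rows, and the overlapping rows of SNORD87 are each among the 17.

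SNHG12 held 3 box H/ACA snoRNAs and 1 box C/D snoRNA, in which capitals mark ACA within 10 nt of the end or the boxes C and D as above.
SNORA16A: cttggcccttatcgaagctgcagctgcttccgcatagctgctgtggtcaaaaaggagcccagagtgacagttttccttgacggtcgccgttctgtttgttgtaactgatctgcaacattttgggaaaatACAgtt
SNORA44: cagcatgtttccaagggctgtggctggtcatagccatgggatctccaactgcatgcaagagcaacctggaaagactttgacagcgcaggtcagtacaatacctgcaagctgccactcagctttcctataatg
SNORA61: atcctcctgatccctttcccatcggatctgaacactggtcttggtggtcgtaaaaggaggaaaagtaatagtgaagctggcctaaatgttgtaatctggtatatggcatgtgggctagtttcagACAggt
SNORD99: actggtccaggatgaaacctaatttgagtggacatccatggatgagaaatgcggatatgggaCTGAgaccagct
They lie in introns of SNHG12 on the minus strand, SNORA16A at chr1:28907432-28907566, SNORA44 at chr1:28906893-28907024, SNORA61 at chr1:28906276-28906405 and SNORD99 at chr1:28905261-28905334. The letters ACA stood in this window in 6 of the 7 SNORA rows within the host genes (85.7%). Elsewhere they stood in 73.4% of the 391 SNORA rows that had a strand in GENCODE release 44. SNORA44 had no ACA in its window, and SNORD99 had no exact C box.

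**Figure D1:**
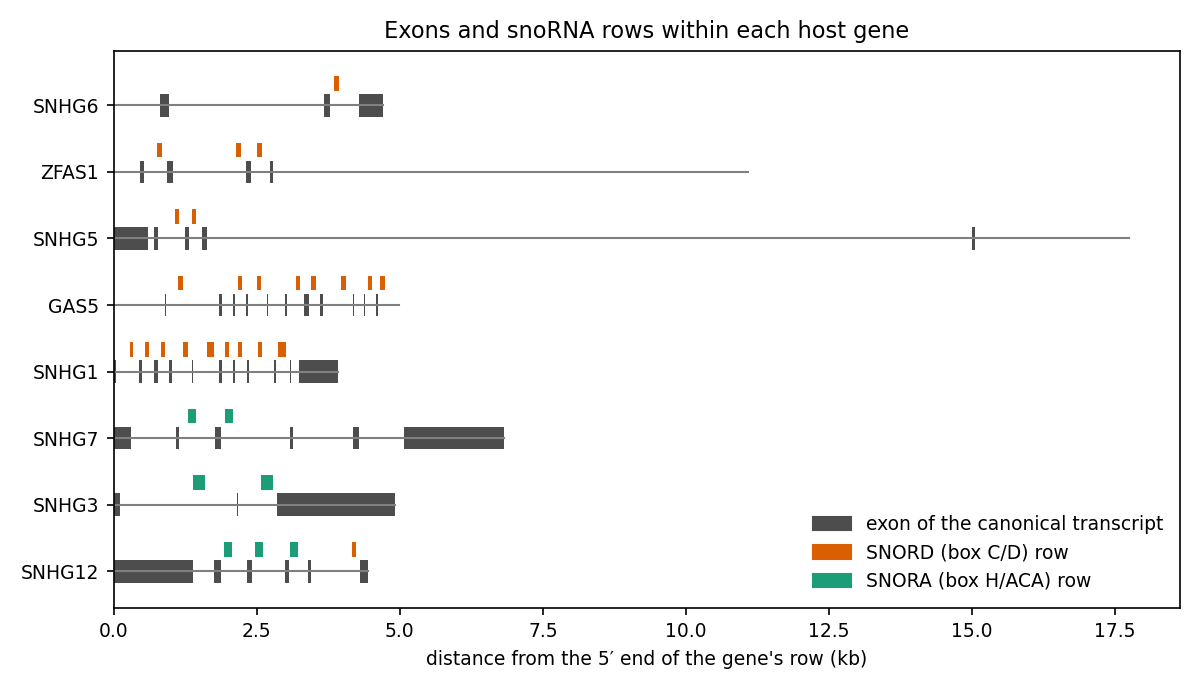
Each line is the span of 1 host gene in the deposited tables, drawn from its start in the direction of transcription in kb. Dark blocks are exons of the canonical transcript in GENCODE release 44, cut to that span, and coloured blocks above them are the 25 SNORD and 7 SNORA rows, none of which touches an exon. The last exon of GAS5 lies past the end of its row and is not drawn, so SNORD81 stands to the right of the drawn exons.

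Levels of the snoRNAs themselves were not measurable in these tables. Of the 32 rows, 31 were listed at 0 FPKM in both samples, and all 32 had the status LOWDATA in both. FPKM counts sequenced fragments relative to the length of the transcript and to the size of the library, so levels of genes of different length can be compared. This does not hold well for rows shorter than a sequenced fragment. The lengths of the 32 rows were 63 to 206 nt with a median of 81 nt, and most were shorter than the average fragment length in the paper. Across all 856 rows named SNORA or SNORD in the tables, 97.9% were likewise at 0 in both samples. The exception within the host genes was SNORA73A in SNHG3, also the longest, with a value that is 0 in all but name (8.03e-147 FPKM) for live cells and 25.1 FPKM for processed cells. Its bounds of 0 to 40.2 FPKM in processed cells include 0, so no difference could be read from it. SNORA73A (U17) and its neighbour SNORA73B, listed at 0 in both samples, are shown because they match at 192 of 206 aligned positions (93.2%), and fragments from one could be given to the other.
SNORA73A: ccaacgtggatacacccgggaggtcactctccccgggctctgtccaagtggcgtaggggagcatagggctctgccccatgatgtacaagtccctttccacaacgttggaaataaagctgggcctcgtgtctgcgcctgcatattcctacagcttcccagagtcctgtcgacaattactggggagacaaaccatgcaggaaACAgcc
SNORA73B: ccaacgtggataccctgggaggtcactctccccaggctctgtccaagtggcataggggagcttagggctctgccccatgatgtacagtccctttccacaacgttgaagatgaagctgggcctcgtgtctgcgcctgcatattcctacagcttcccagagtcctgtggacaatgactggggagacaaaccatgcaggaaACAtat
Both lie in introns of SNHG3 on the plus strand, SNORA73A at chr1:28833878-28834083 and SNORA73B at chr1:28835071-28835274, and capitals mark ACA as above.

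All 7 host genes were detected in Stage 6 cells, with values that do not separate spliced from unspliced RNA. Levels ran from 12.9 to 156 FPKM when cells were live, a 12.1-fold range, and from 12.3 to 179 FPKM after processing, a 14.5-fold range. Their sum was 445 FPKM (0.0870% of all FPKM) in the live and 478 FPKM (0.0956%) in the processed sample. With ZFAS1 the sums were 596 and 603 FPKM. SNHG6 alone made up 35.1% of the sum of the 7 in live cells and 37.5% in processed cells. In live cells the order from high to low was SNHG6, ZFAS1, SNHG5, GAS5, SNHG1, SNHG7, SNHG3 and SNHG12. The lower and upper bounds that the tables give each FPKM, whose confidence level is not given in the sources used here, overlapped between 3 pairs of neighbours in that order, namely SNHG6 and ZFAS1, SNHG5 and GAS5, and SNHG3 and SNHG12. In processed cells SNHG1 stood above GAS5 and SNHG12 above SNHG3, and SNHG5 and SNHG1 were the only neighbours with overlapping bounds.

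**Figure D2:**
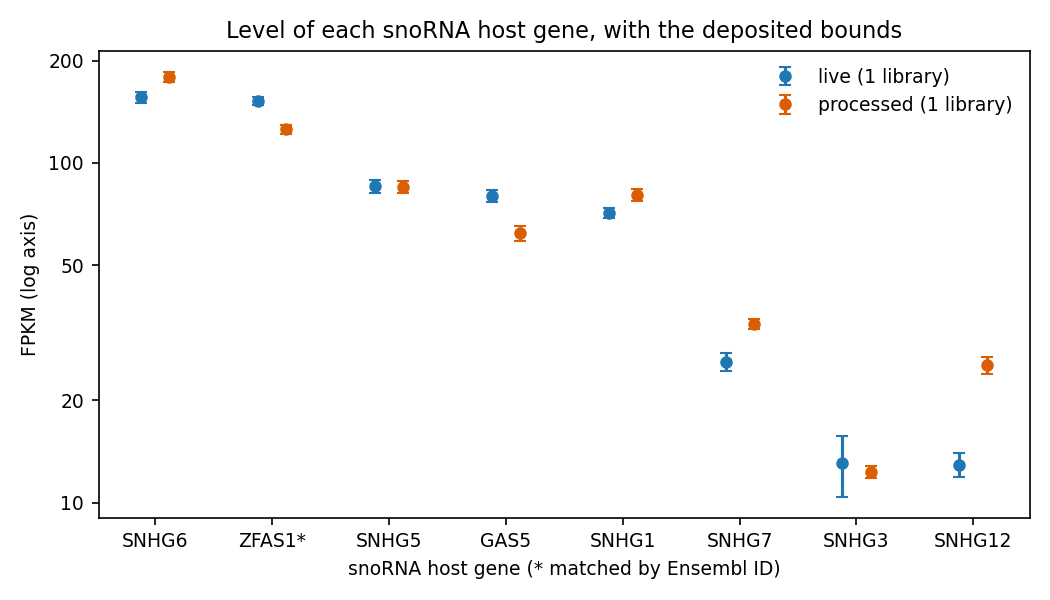
FPKM of each host gene on a log axis in the live library (blue) and the processed library (orange), with the deposited lower and upper bounds as bars, ordered by the level in live cells. GAS5 and ZFAS1 are lower in processed cells, SNHG6, SNHG1, SNHG7 and SNHG12 are higher, and the bars of SNHG5 and SNHG3 overlap.

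SNHG12, SNHG7, SNHG6 and SNHG1 were higher in processed cells with separate bounds, whereas GAS5 and ZFAS1 were lower with separate bounds. For each gene the FPKM plus 1 of processed cells was divided by that of live cells and the log2 taken, which makes differences of low genes look smaller than they are. The median of this ratio over the 7 host genes was 0.17, and over the 17326 genes that reached 1 FPKM in one or both samples it was -0.09. Bounds were separate for 5 of the 7, 4 higher and 1 lower in processed cells. Among all 17326 genes, 71.8% had separate bounds, 28.1% higher and 43.7% lower, so the total of 5 was near this background. None of the 7 was past 2-fold, where 12.8% of all genes were, 6.57% higher and 6.19% lower in processed cells (0 of 8 with ZFAS1). In a mixed culture, fewer cells of a type and less RNA per cell cannot be told apart. Over genes that reached 1 FPKM in both samples, processed values were a median 0.932 times the live ones, which is -0.10 on the log2 scale, and the values below include this shift.

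SNHG12 differed most. It lies on chromosome 1, 28905050 to 28909495, on the minus strand. Its level was 12.9 FPKM in live cells (bounds 11.9 to 13.97) and 25.3 FPKM in processed cells (23.9 to 26.8), a ratio of 1.96 and a log2 ratio of 0.92. Of all genes tested, 14.8% had a larger absolute log2 ratio. Among genes that reached 10 FPKM in one or both samples, as SNHG12 did, the 95th percentile of the log2 ratio was 0.724. Divided by the median ratio of all genes, its log2 ratio was 1.02, past 2-fold. The share of all genes past 2-fold under that scaling is not given here. The row shares 2 nt with that of TRNAU1AP, a gene for a protein that acts with the selenocysteine tRNA, which ends there on the opposite strand and went from 17.3 FPKM (16.0 to 18.6) to 14.3 FPKM (13.6 to 15.1). The neighbour was lower where SNHG12 was higher, and any part of the shared 2 nt in these values was not tested.

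SNHG7, on chromosome 9, 139615818 to 139622636, minus strand, is the host of SNORA43 and SNORA17. It had 26.0 FPKM in live cells (24.3 to 27.6) and 33.5 FPKM in processed cells (32.3 to 34.7), a log2 ratio of 0.35. Its row overlaps 2685 nt of FAM69B on the opposite strand, which was also higher in processed cells, at 21.6 FPKM (20.8 to 22.3) against 18.3 FPKM (17.6 to 19.0). Whether the libraries kept the strand is not given in the sources used here, so fragments of the overlapping stretch may have been shared between these genes, and its part in the result was not tested.

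SNHG6 (chromosome 8, 67833919 to 67838633, minus strand), which hosts SNORD87, had the highest level of the host genes. It was at 156 FPKM in live cells (150 to 162) and 179 FPKM in processed cells (173 to 185), a log2 ratio of 0.20. The overlapping MCMDC2 was under 1 FPKM in both samples. SNHG1 (chromosome 11, 62619460 to 62623386, minus strand) was at 71.3 FPKM (68.7 to 73.8) live and at 80.6 FPKM (77.4 to 83.8) processed, and its log2 ratio was 0.17. Among the 7 host genes, SNHG1 and SNHG5 had no overlap with a gene other than their snoRNAs. Differences of this size were common, since 71.5% of all genes tested had a larger absolute log2 ratio than SNHG1.

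GAS5 was lower in processed cells. It lies on chromosome 1, 173833038 to 173838020, minus strand, and its spliced RNA is known to accumulate in cells that stop growing. Its level was 79.9 FPKM in live cells (76.4 to 83.4) and 62.0 FPKM in processed cells (58.9 to 65.1), a log2 ratio of -0.36, and 27.4% of all genes tested had a smaller ratio. ZBTB37, which starts within the GAS5 row on the opposite strand and shares 801 nt with it, was at 1.12 FPKM (0.969 to 1.27) in live and 0.183 FPKM (0.0841 to 0.283) in processed cells. GAS5-AS1, an antisense RNA sharing 42 nt, was at 1.09 FPKM and 0.771 FPKM with overlapping bounds. Both neighbours were far below GAS5 in level.

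ZFAS1 hosts 3 related snoRNAs, SNORD12, SNORD12B and SNORD12C, and runs antisense to the start of ZNFX1 (chromosome 20, 47894715 to 47905797, plus strand). Its level was 152 FPKM in live cells (148 to 156) and 126 FPKM in processed cells (122 to 129), a log2 ratio of -0.27. It was therefore the second host gene with a lower value in processed cells and separate bounds. ZNFX1, which shares 249 nt with it, was at 1.77 and 1.53 FPKM with overlapping bounds.

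SNHG5 and SNHG3 did not differ beyond their bounds. SNHG5, the U50 host gene (chromosome 6, 86370710 to 86388451, minus strand), was at 85.2 FPKM in live cells (81.6 to 88.9) and 84.9 FPKM in processed cells (81.3 to 88.6). Its log2 ratio of -0.0049 became 0.095 when processed values were divided by the median ratio of all genes, with bounds still overlapping. SNHG3 (chromosome 1, 28832492 to 28837404, plus strand) was at 13.0 FPKM in live cells (10.4 to 15.7) and 12.3 FPKM in processed cells (11.8 to 12.8), and its log2 ratio of -0.075 became 0.019 under the same scaling. The whole SNHG3 row lies within that of RCC1, the exchange factor of the GTPase Ran, on the same strand. RCC1 was lower in processed cells, at 21.8 FPKM (21.0 to 22.7) against 28.6 FPKM (27.7 to 29.6), and the division of fragments between these genes is uncertain. The bounds of SNHG3 reached 20.1% of its FPKM to either side in live cells and 4.23% in processed cells, whereas those of the other 7 host genes reached 2.76% to 8.16%.

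**Figure D3:**
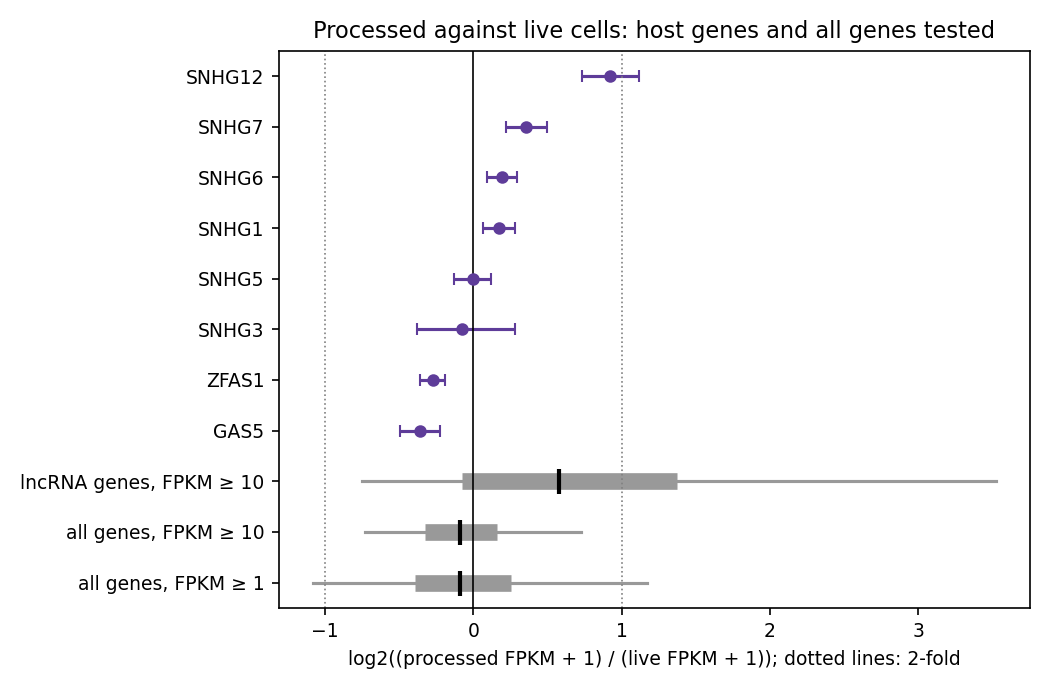
Log2 ratio of processed to live FPKM (pseudocount 1) for each host gene, with bars from the deposited bounds taken at their extremes, above the spread of all genes and of lncRNA genes (thick bar, middle 50% of genes; thin bar, 5th to 95th percentile; tick, median). SNHG12 lies highest at 0.92 and GAS5 lowest at -0.36, and no point crosses the dotted 2-fold lines, though the bar of SNHG12 reaches 1.11.

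The host genes are lncRNA genes by their annotation. The 160 lncRNA genes that reached 10 FPKM in one or both samples had a median log2 ratio of 0.58. Bounds were separate for 88.1% of them, higher in processed cells for 65.0% and lower for 23.1%, and 38.1% were past 2-fold either way. All 8515 genes at this level had a median of -0.09, and 5.01% of them were past 2-fold. The median of 0.17 for the 7 host genes lay between these, and none of them was past 2-fold.

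Of 11 other noncoding snoRNA host genes listed for comparison, 9 had a row and 8 reached 1 FPKM. Bounds were separate and higher in processed cells for 5 of the 8 and lower for 2, against 28.1% and 43.7% of all genes tested. Among lncRNA genes that reached 10 FPKM in one or both samples, the shares were 65.0% and 23.1%, so the count of 5 was near that share. The median log2 ratio of the 8 was 0.16. SNHG9 (chromosome 16, 2014960 to 2015510) differed most, at 1.94 FPKM in live (1.07 to 2.81) and 22.3 FPKM in processed cells (19.3 to 25.3). It was the 1 gene of this list past 2-fold, where 12.8% of all genes tested were. SNHG15 was lowest, from 22.3 FPKM to 16.5 FPKM, a log2 ratio of -0.41. DANCR, the most abundant in live cells, went from 66.6 FPKM (64.0 to 69.2) to 56.0 FPKM (54.0 to 57.9). As among the 7, values in this list differed in both directions.

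None of the protein-coding snoRNA hosts, mostly genes of ribosomal proteins and translation factors, was past 2-fold. Of all genes that reached 10 FPKM in one or both samples, 5.01% were. All 38 hosts reached 1 FPKM. With separate bounds 6 were higher and 18 lower in processed cells, against 28.1% and 43.7% of all genes tested. EIF4A2, among the 38, had the status FAIL in live cells and bounds of 0 to 1398 FPKM, so no difference could be called for it. The median log2 ratio of the 38 was -0.04, with a range from -0.36 to 0.18. RPL13, a protein of the large ribosomal subunit and the most abundant in live cells, went from 1574 FPKM to 1414 FPKM. HSPA8, a constitutive chaperone that carries snoRNAs in its introns, had the lowest ratio, from 498 FPKM to 387 FPKM, and CHD8, a chromatin remodeller, the highest, from 28.7 FPKM to 32.7 FPKM.

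Proteins that bind the mature snoRNAs differed in both directions, with list medians near that of all genes. Of the 4 core proteins of box C/D particles, the methyltransferase FBL had 94.2 FPKM before and 90.8 FPKM after processing and NOP58 had 36.996 and 35.1 FPKM, both with overlapping bounds. NOP56 was lower, at 133 FPKM (130 to 136) and 127 FPKM (124 to 129), and NHP2L1 higher, at 53.8 FPKM (51.2 to 56.4) and 62.4 FPKM (59.6 to 65.3). Of the 4 core proteins of box H/ACA particles, bounds overlapped for the pseudouridine synthase DKC1, at 29.9 and 28.2 FPKM, and for NOP10, at 68.0 and 65.7 FPKM. The bounds of the other two were separate in opposite directions.

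GAR1 went from 13.6 FPKM (12.7 to 14.4) to 20.9 FPKM (19.9 to 21.96) and NHP2 from 55.7 FPKM (53.6 to 57.8) to 37.6 FPKM (35.9 to 39.3). The medians of the log2 ratio were -0.06 for the box C/D proteins and -0.07 for the box H/ACA proteins. Among 11 assembly factors of these particles, 4 were higher and 2 lower with separate bounds, against 28.1% and 43.7% of all genes tested. The median of the 11 factors was 0.04. The extremes were SHQ1, a chaperone of DKC1, at 0.56 and TGS1, which methylates the cap of small RNAs, at -0.53. RUVBL2, an AAA ATPase and the most abundant of these factors in live cells, had 37.4 and 40.8 FPKM.

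Factors of nonsense-mediated decay were mostly lower in processed cells. Of 14, 10 were lower and 3 higher with separate bounds and none was past 2-fold, with a median log2 ratio of -0.21. Among all genes tested, 43.7% were lower with separate bounds. SMG8 had the highest ratio, at 6.98 FPKM live (6.66 to 7.31) and 9.83 FPKM processed (9.19 to 10.5). RBM8A, a subunit of the exon junction complex, had the highest level in live cells, 81.7 FPKM, and was at 73.6 FPKM in processed cells.

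**Figure D4:**
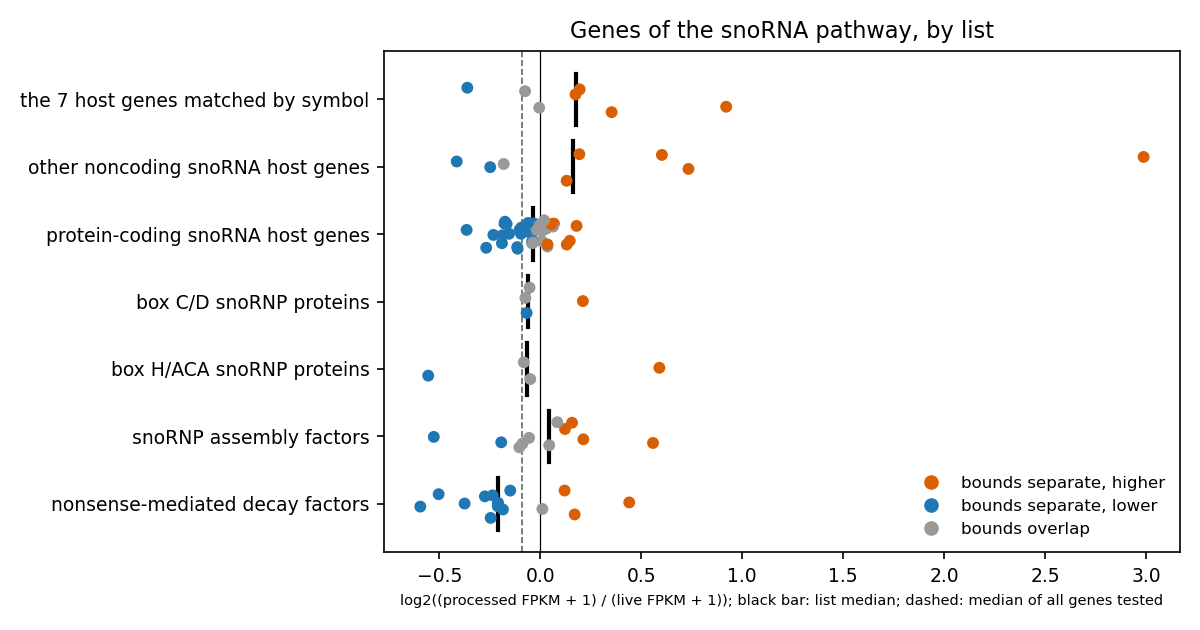
Log2 ratio of processed to live FPKM for every gene of the snoRNA pathway lists that reached 1 FPKM in one or both samples; points are genes, coloured by whether their bounds are separate, black bars are list medians and the dashed line is the median of all genes tested. The medians run from -0.21 for nonsense-mediated decay factors to 0.17 for the host genes, and SNHG9 at 2.99 stands apart.

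For each host gene, the gene with the nearest pair of levels among 8347 genes that reached 10 FPKM in one or both samples and had the status OK in both was also taken, as the distance on log2(FPKM + 1) over the 2 samples. SNHG12 was nearest to NARG2 (13.1 and 24.6 FPKM, distance 0.048) and GAS5 to ANXA4 (79.3 and 63.8 FPKM, distance 0.042). The other nearest genes were TTR for SNHG6, TSPAN3 for ZFAS1, UQCRB for SNHG5, NUMA1 for SNHG1, NDN for SNHG7 and CYB561 for SNHG3. With 2 samples such nearness is a description of level only.

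Markers of the cells were measured in the same libraries. All 7 pancreatic endocrine markers were above 0 in both samples and summed to 2364 FPKM (live) and 2354 FPKM (processed). Most of both sums was CHGA, whose processed value is uncertain, as given below, so the sums say little of the other markers. With separate bounds 3 of the 7 were higher and 1 was lower in processed cells, against 28.1% and 43.7% of all genes tested. INS, among the 3, was at 98.3 FPKM (95.2 to 101) and 121 FPKM (117 to 125). Markers of other cells were present too and none was at 0. The 3 liver markers summed to 799 and 956 FPKM, the 3 stromal markers to 49.6 and 36.8 FPKM and the 3 pluripotency markers to 128 and 105 FPKM in live and processed cells. The stromal sum was thus lower in processed cells and the liver sum was higher, but the bounds of COL3A1 and of ALB overlapped. The pluripotency sum was lower too, but of its markers only LIN28A was lower, NANOG was higher and the bounds of POU5F1 overlapped. The part of these cell types in the results was not tested. The medians of the log2 ratio were -0.04 for endocrine, 0.26 for liver, -0.48 for stromal and 0.10 for pluripotency markers, the last with NANOG past 2-fold at 1.27 FPKM live and 7.34 FPKM processed, LIN28A at 119 and 88.7 FPKM and POU5F1 at 7.92 and 8.53 FPKM. Of the stromal markers, PDGFRB was past 2-fold lower at 4.26 and 1.17 FPKM, COL1A1 was at 31.9 and 22.7 FPKM and COL3A1 at 13.4 and 13.0 FPKM, and of the liver markers ALB was at 42.3 and 45.9 FPKM, AFP at 460.1 and 550.4 FPKM and APOA1 at 297 and 360 FPKM. CHGA, a granin of endocrine cells with the highest endocrine level, had 1794 FPKM in the live sample and 1741 FPKM in the processed one, where its status was FAIL and its bounds ran from 0 to 4712, and NEUROG3 had the lowest ratio of that list, at 10.02 and 7.29 FPKM.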

How the data were processed

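RNA-seq of 1 live and 1 processed sample of Stage 6 cells was analysed. The authors aligned paired reads to GRCh37/hg19 with STAR 2.2.0c, which was given the GENCODE gene models, and deposited FPKM values with lower and upper bounds for each gene. The paper names Cuffdiff and the submitters' processing notes name Cufflinks (version 2.0.2). The level of the bounds is not given in the sources used here, and fragment counts were not used, so the bounds alone give the precision of a value within its library. FPKM of a gene sums over its transcripts and assigns shared fragments by likelihood, which can move values between overlapping genes.

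Files were joined by Ensembl identifier with Python 3.11.15, numpy 2.4.6 and pandas 2.3.3. Log2 ratios used a pseudocount of 1, and background shares cover genes that reached 1 FPKM in one or both samples. Bounds were called separate where the lower bound of one sample exceeded the upper bound of the other. Starts in the tables count from 0 and are printed counting from 1. Strand, gene type and exons came from GENCODE release 44 on GRCh37, which held 94.5% of the identifiers. Of 772 snoRNA rows in both, 767 had the same start and end. SNORA73A and SNORA73B were aligned with Biopython 1.88. The members and lists were chosen with earlier results of these data known. Genes were named by a rule: the host genes, rows overlapping them, the extremes and most abundant gene of each list (all genes of lists of 4 or fewer) and the nearest gene by level. Not every gene this rule names is reported here. The code that counts genes past 2-fold was tested on simulated data. The groups have 1 sample each, and no test was run.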

Additional observations from a re-analysis of the deposited data

How the results depend on the processing

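The host genes kept their side of 0 under a pseudocount of 0.1, no pseudocount, equal sums and scaling by the median ratio of all genes, and their bounds call under the last, where it was recomputed, except that SNHG5 and SNHG3, whose bounds overlap, changed sign to 0.095 and 0.019 under median ratio scaling, and SNHG5 to 0.027 under equal sums. Of 32 such values, 31 stayed within the range their bounds allow. ZFAS1, at -0.17 under median ratio scaling, lay just outside. The same scaling put 1 host gene, SNHG12, past 2-fold in place of 0. The share of all genes past 2-fold under that scaling is not given here, and without scaling it was 12.8%. Median ratio scaling also moved the medians of the other noncoding hosts to 0.26, the protein-coding hosts to 0.064 and the box C/D proteins to 0.040. The box H/ACA proteins moved to 0.034, the endocrine markers to 0.058, the stromal markers to -0.38 and the liver markers to 0.36. The medians of the protein-coding hosts, both protein lists and the endocrine markers thus changed sign. Scaling follows the shift of all genes by construction. With only genes of at least 10 FPKM, the median was -0.42 for pluripotency markers, where LIN28A alone remains, and -0.26 for stromal markers. Adding ZFAS1, an alternative chosen after seeing the data, gave 2 host genes lower with separate bounds in place of 1 and a median of 0.085 in place of 0.17, and leaving out SNHG3, also chosen later, gave 0.19. No paired analysis was possible because each condition has 1 sample, and no sample could be left out. Without replicates, the bounds cover each library alone.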
